A study of Mus musculus with 36 samples.

Results

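Extracellular matrix and fibrosis genes were followed in mouse kidney as a set of 39 genes, matched by gene identifier in the count file of every library, out of 55536 annotated genes. The set holds 10 interstitial collagen genes, 10 basement membrane genes, 9 genes for other matrix glycoproteins and proteoglycans, 2 collagen cross-linking enzymes, 2 signalling proteins, 4 regulators of matrix turnover and 2 genes that mark mesenchymal cells. All 39 passed the expression filter and are among the 18180 genes tested. The kidneys came from 6 groups of 6 libraries each. In the genotype labelled ob these were ob_control (no CdCl2), ob_Cd0.5 (0.5 mg/kg) and ob_Cd2 (2 mg/kg), and in the genotype labelled b6j they were b6j_control, b6j_Cd0.5 and b6j_Cd2 at the same doses. Every sample carries the strain label C57BL/6, so the groups share that background as labelled, and ob is the usual short name of the leptin mutation that makes mice obese. By its title the study asked about kidney damage from chronic cadmium accumulation. Route, duration, age and sex are not in the labels, nor do they say that libraries of a group came from separate animals, so the p-values below measure the spread between these libraries, which may in part be technical.

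Interstitial collagens form the fibrils between tubules, and their excess deposition by fibroblasts and pericytes is the hallmark of kidney fibrosis. Basement membranes are thin sheets of type IV collagen, laminin and nidogen under tubule cells and around the glomerular capillaries. Type IV collagen comes in networks of different chains. The chains encoded by Col4a1 and Col4a2 are found in nearly all basement membranes. Those of Col4a3, Col4a4 and Col4a5 build the mature glomerular membrane, where podocytes make them. Transforming growth factor beta is the best known inducer of interstitial matrix, and metalloproteinases with their tissue inhibitors set how fast matrix is removed.

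The libraries held 26783936 to 37244058 counted reads, so 3 counts were worth 0.0851 to 0.112 CPM (a gene's counts scaled to a fixed library size). Mt1, the metallothionein gene that cadmium induces, averaged 111 ± 21.2 CPM at 0 mg/kg, 2823 ± 408 CPM at 0.5 mg/kg and 4424 ± 518 CPM at 2 mg/kg in ob kidneys (SD, n = 6). Its averages in b6j kidneys were 116 ± 17.3, 1369 ± 253 and 3073 ± 582 CPM at the same doses. Lep, the leptin gene, lay at 0.0591 to 7.93 CPM in ob_control libraries and at 0 to 0.188 CPM in b6j_control libraries. The library ob_Cd2 replicate 5 stood apart from every other library. Its summed level of 9 proximal tubule markers was 1192 CPM, against 8220.3 to 10842 CPM in the other ob_Cd2 libraries, and its 6 urothelial markers summed to 398 CPM, against 28.2 to 46.5 CPM. It held 1.99 CPM of Col1a1 and 849 CPM of Col18a1, the lowest and the highest level of those genes in all 36 libraries. It was kept, and for genes, counts and marker sums of ob_Cd2 values without it are given as well. Because the 6 groups share 1 estimate of the spread, leaving it out also changes calls between groups that do not contain it. In bulk tissue, fewer cells of a type and less RNA per cell cannot be told apart.

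Measured per transcript length, basement membrane genes were the more abundant class. Mean levels in ob_control kidneys ran from 8.55 TPM (scaled by gene length as well as library size) for Col15a1 to 66.8 TPM for Col18a1 among basement membrane genes, with Col4a1 at 63.9 TPM and Col4a3 at 54.4 TPM. Among interstitial collagens they ran from 2.94 TPM for Col5a2 to 54.7 TPM for Col27a1, with Col1a1 at 6.63 TPM and Col3a1 at 6.25 TPM. In b6j_control kidneys Col1a1 was at 6.41 TPM, Col27a1 at 38.1 TPM and Col4a1 at 64.9 TPM. Timp3, a tissue inhibitor of metalloproteinases that binds to matrix, was the most abundant gene of the set in both control groups, at 272 TPM in ob and 351 TPM in b6j.

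At 2 mg/kg many matrix genes rose in both genotypes, with Col3a1, Col1a1, Fn1, Lox and Mmp14 among them, while Col27a1, Col4a3 and Col4a4 fell. In ob kidneys 13 of the 39 genes were higher and 4 were lower than in ob_control, beside 20.4% of all tested genes called higher and 18% called lower. The higher genes were Col1a1, Col3a1, Col4a1, Col4a2, Col18a1, Lamc1, Nid1, Fn1, Fbn1, Sparc, Lox, Tgfb1 and Mmp14, and the lower ones Col27a1, Col4a3, Col4a4 and Ctgf. A call is an adjusted p under 0.05 in the quasi-likelihood test of edgeR, adjusted over all genes tested, and each change is a log2 ratio ± its standard error. The share of the set called higher, 13 of 39, was above the background share of ob kidneys, and the share called lower, 4 of 39, was below it. The set was chosen with earlier results of these data known, so these shares are a description and no test of the set. In b6j kidneys 17 genes were higher and 3 lower than in b6j_control, beside 12.3% and 11.4% of all tested genes. The 17 higher genes in b6j were the 13 named for ob and Col1a2, Dcn, Postn and Pdgfrb. The 3 lower genes in b6j were Col27a1, Col4a3 and Col4a4. Sharing of calls between genotypes was not counted over all genes, so it is not read as a trait of this set. Without ob_Cd2 replicate 5 the counts were 20 higher and 5 lower in ob, beside 19.1% and 18.9% of 18380 tested genes. In b6j they were then 25 and 4, beside 17% and 17.7%. The median log2 change over the set was 0.20 in ob and 0.45 in b6j, against 0.011 and 0.017 over all tested genes, and without that library it was 0.37 in ob.

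**Figure D1:**
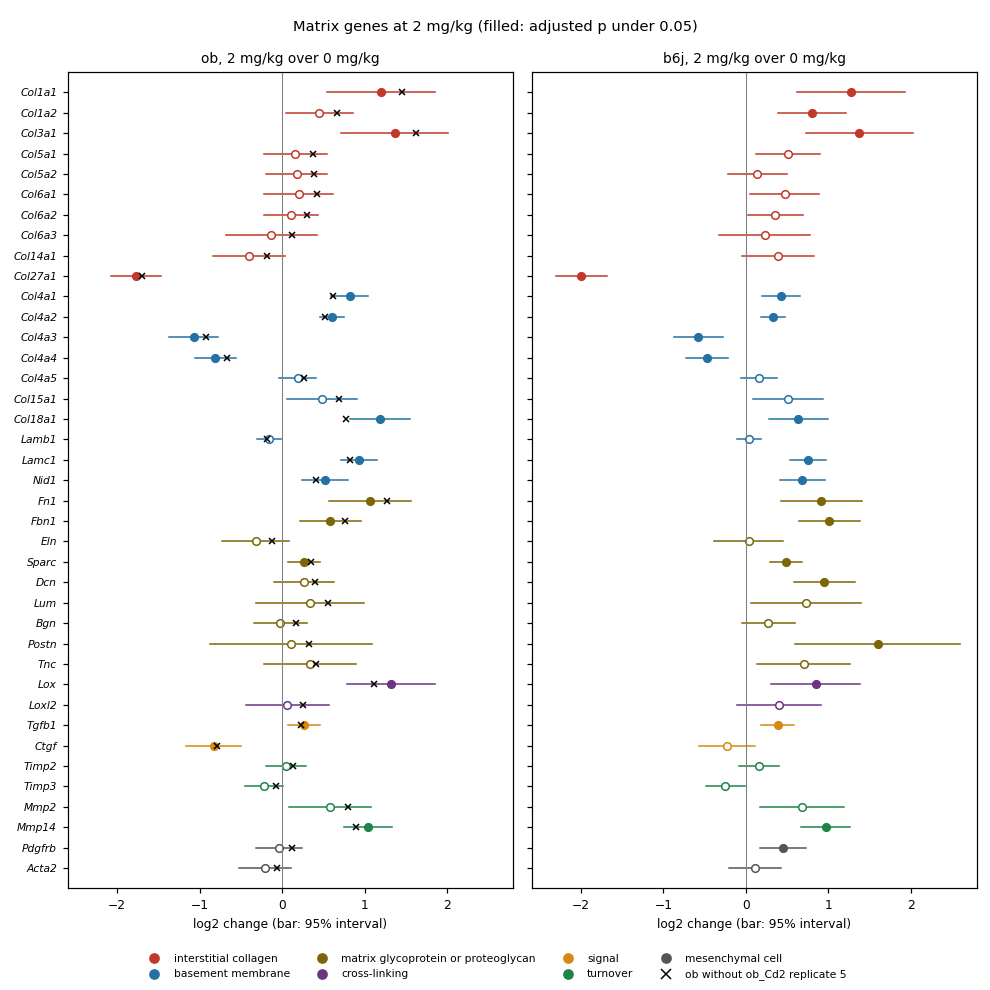
Log2 change of each of the 39 matrix genes at 2 mg/kg over 0 mg/kg in ob kidneys (left) and b6j kidneys (right), with 95% intervals; filled points were called and crosses give the ob change without ob_Cd2 replicate 5. In both panels Col1a1, Col3a1, Fn1 and Lox lie to the right of 0, and Col27a1, Col4a3 and Col4a4 to the left, with Col27a1 at -1.77 in ob and -1.996 in b6j.

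Among the interstitial collagens the fibrillar genes Col1a1 and Col3a1 rose most. Col1a1 (chr11:94936224-94953042, plus strand, GRCm38) encodes the main chain of type I collagen. In ob kidneys its lowest, median and highest levels over 6 libraries were 14.2, 15.1 and 16.9 CPM at 0 mg/kg, 13.9, 18.7 and 20.7 CPM at 0.5 mg/kg and 1.99, 37.4 and 56.0 CPM at 2 mg/kg. Its b6j levels were 9.49, 15.9 and 22.6 CPM at 0 mg/kg, 19.0, 26.8 and 37.3 CPM at 0.5 mg/kg and 28.9, 38.3 and 50.8 CPM at 2 mg/kg. Apart from ob_Cd2 replicate 5, every library at 2 mg/kg lay above every control library of its genotype. The change at 2 mg/kg was 1.196 ± 0.33 (edgeR adjusted p = 0.00431) in ob, 1.46 ± 0.19 (edgeR adjusted p = 1.11e-07) without replicate 5, and 1.28 ± 0.33 (edgeR adjusted p = 0.00425) in b6j. In a fit of the 2 ob groups alone the ob call was lost, for Col1a1 (edgeR adjusted p = 0.0825) as for Col3a1 (edgeR adjusted p = 0.056). The changes of Col1a1 are folds of 2.30 in ob, 2.75 in ob without replicate 5 and 2.42 in b6j.

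Col3a1 (chr1:45311538-45349706, plus strand), the type III chain that forms fibrils together with type I, had 16.9, 20.9 and 28.9 CPM at 0 mg/kg, 22.5, 28.1 and 34.2 CPM at 0.5 mg/kg and 3.18, 57.1 and 90.5 CPM at 2 mg/kg in ob kidneys, again as lowest, median and highest. Its b6j levels were 13.1, 24.4 and 28.2 CPM at 0 mg/kg, 20.9, 33.4 and 42.0 CPM at 0.5 mg/kg and 48.3, 56.0 and 70.1 CPM at 2 mg/kg. The 2 mg/kg libraries of both genotypes lay above their controls, with ob_Cd2 replicate 5 as the exception at 3.18 CPM. Changes were 1.36 ± 0.33 (edgeR adjusted p = 0.00123) in ob, 1.62 ± 0.18 (edgeR adjusted p = 3.20e-09) without that library, and 1.38 ± 0.33 (edgeR adjusted p = 0.00197) in b6j. Col1a2, the second chain of type I collagen, moved less: 0.45 ± 0.21 (edgeR adjusted p = 0.0841) in ob, 0.67 ± 0.12 (edgeR adjusted p = 3.89e-05) without replicate 5 and 0.80 ± 0.21 (edgeR adjusted p = 0.00446) in b6j. The ratio of Col1a1 to Col1a2 reads averaged 0.45 ± 0.17 at 2 mg/kg against 0.30 ± 0.027 at 0 mg/kg in ob (SD, n = 6), and 0.57 ± 0.091 against 0.41 ± 0.066 in b6j. The ob ratio at 2 mg/kg without ob_Cd2 replicate 5 was 0.51 ± 0.067 (SD, n = 5).

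The remaining interstitial collagens moved little or not past the threshold. Col5a1 and Col5a2, chains of the type V collagen that starts fibrils, and Col6a1, Col6a2 and Col6a3, chains of the beaded type VI filaments, changed by -0.13 to 0.20 in ob and by 0.14 to 0.51 in b6j, with none called. With that library left out, Col5a1, Col5a2, Col6a1 and Col6a2 were called higher in ob, at 0.37, 0.38, 0.42 and 0.30, and Col5a1, Col6a1 and Col6a2 in b6j, at 0.50, 0.46 and 0.35. Col6a3 was called in neither genotype. Col14a1, a collagen that sits on the surface of fibrils, changed by -0.41 ± 0.22 (edgeR adjusted p = 0.150) in ob and 0.39 ± 0.22 (edgeR adjusted p = 0.222) in b6j. Without the library it was -0.18 in ob and, called higher, 0.38 in b6j.

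Col27a1 went the other way. It is a fibrillar collagen best known from cartilage (chr4:63214004-63334991, plus strand). Its lowest, median and highest levels in ob kidneys were 200.5, 259 and 279 CPM at 0 mg/kg, 129, 174 and 194 CPM at 0.5 mg/kg and 53.6, 77.6 and 89.0 CPM at 2 mg/kg. The same levels in b6j kidneys were 157, 197 and 245 CPM at 0 mg/kg, 90.8, 162 and 224 CPM at 0.5 mg/kg and 42.0, 50.5 and 57.4 CPM at 2 mg/kg. At 2 mg/kg all 12 libraries, ob_Cd2 replicate 5 included, lay below every control library. The change was -1.77 ± 0.16 (edgeR adjusted p = 5.48e-11) in ob and -1.996 ± 0.16 (edgeR adjusted p = 5.90e-12) in b6j, a 3.41-fold and a 3.99-fold lower level, and -1.70 ± 0.16 (edgeR adjusted p = 5.58e-11) in ob without replicate 5. It had the smallest adjusted p of the 39 genes in each of these comparisons. The summed level of 9 proximal tubule markers was also lower at 2 mg/kg, at 8273 ± 3587 CPM in ob_Cd2 (9689 ± 1022 CPM without replicate 5) against 12707 ± 825 CPM in ob_control, and at 10894 ± 1101 CPM in b6j_Cd2 against 15296 ± 404 CPM in b6j_control (SD, n = 6), with none of the 9 at 0 in all libraries. Their part in the fall of Col27a1 was not tested.

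Bases before a RefSeq start of Col3a1 and Col27a1 are shown because these were the interstitial collagens with the largest rise and the largest fall at 2 mg/kg in both genotypes. Both are 250 bases before the RefSeq start on GRCm38.p6, plus strand, chr1:45311288-45311537 for Col3a1 and chr4:63215162-63215411 for Col27a1. The RefSeq start of Col27a1 lies inside the annotated gene, so its window falls in an intron there. Capitals mark matches on either strand to 3 short motifs, none of which contains another. They are the TATA box, searched as TATAAA, the GC box, searched as GGGCGG, and the element of many start regions searched as CCAAT.
Col3a1: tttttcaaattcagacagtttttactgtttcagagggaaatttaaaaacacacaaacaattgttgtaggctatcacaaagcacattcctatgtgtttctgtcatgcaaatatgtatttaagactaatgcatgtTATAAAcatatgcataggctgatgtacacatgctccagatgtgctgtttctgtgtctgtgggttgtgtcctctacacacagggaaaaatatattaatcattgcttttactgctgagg
Col27a1: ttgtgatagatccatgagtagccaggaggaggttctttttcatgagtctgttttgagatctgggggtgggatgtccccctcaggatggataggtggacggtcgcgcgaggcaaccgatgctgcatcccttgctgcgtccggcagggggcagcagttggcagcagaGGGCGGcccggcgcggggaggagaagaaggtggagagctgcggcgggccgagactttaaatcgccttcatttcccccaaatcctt
The Col3a1 window holds TATAAA, found in 12.4% of the 32851 RefSeq windows of that length, and the Col27a1 window holds GGGCGG, found in 32.7%. Of the 39 genes 25 had a window in the RefSeq table. CCAAT, found in 33.8% of all windows, lay in 1 of 8 interstitial collagen windows and 6 of 9 basement membrane windows, GGGCGG in 5 of 8 and 5 of 9, and TATAAA in 1 of 8 and 0 of 9. These are matches of letters and no sites of binding were measured.

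Basement membrane genes split in 2 directions at 2 mg/kg. Col4a1 (chr8:11198423-11312826, minus strand), a chain of the widespread type IV network, had lowest, median and highest levels of 154, 167 and 183 CPM at 0 mg/kg, 170.5, 194 and 224 CPM at 0.5 mg/kg and 218, 265 and 491 CPM at 2 mg/kg in ob kidneys. Its b6j levels were 165, 195 and 212 CPM at 0 mg/kg, 179, 206 and 213 CPM at 0.5 mg/kg and 249, 255 and 274 CPM at 2 mg/kg. The 2 mg/kg libraries lay above the controls in both genotypes. Changes were 0.82 ± 0.12 (edgeR adjusted p = 8.20e-07) in ob, 0.62 ± 0.07 (edgeR adjusted p = 7.07e-09) without replicate 5, and 0.42 ± 0.11 (edgeR adjusted p = 0.00578) in b6j. Its partner chain Col4a2 (chr8:11312805-11449287, plus strand) rose by 0.60 in ob (edgeR adjusted p = 9.14e-08; 0.52 without replicate 5) and 0.33 in b6j (edgeR adjusted p = 0.00112).

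Col4a3 (chr1:82586921-82722059, plus strand), a chain of the mature glomerular network, had 162, 193 and 216 CPM at 0 mg/kg, 127, 150.4 and 183 CPM at 0.5 mg/kg and 43.2, 95.2 and 123 CPM at 2 mg/kg in ob kidneys, as lowest, median and highest. Levels in b6j kidneys were 165, 221 and 237 CPM at 0 mg/kg, 190.1, 199 and 233 CPM at 0.5 mg/kg and 112, 149 and 161 CPM at 2 mg/kg. Every library at 2 mg/kg was below every control library of its genotype. It changed by -1.07 ± 0.15 (edgeR adjusted p = 1.05e-06) in ob and by -0.58 ± 0.15 (edgeR adjusted p = 0.00461) in b6j. Col4a4 (chr1:82448423-82586849, minus strand) changed with it, by -0.81 ± 0.13 (edgeR adjusted p = 6.61e-06) in ob and -0.47 ± 0.13 (edgeR adjusted p = 0.00595) in b6j. Without replicate 5 the ob changes were -0.93 for Col4a3 and -0.67 for Col4a4, both called. Col4a5, the X-linked partner of these chains, did not follow, at 0.19 ± 0.11 (edgeR adjusted p = 0.190) in ob and 0.16 ± 0.11 (edgeR adjusted p = 0.326) in b6j, and without the library it was called higher in ob at 0.26. In the annotation 5.65% of the exon bases of Col4a3 are shared with C430014B12Rik, and counting did not use strand.

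The 8 podocyte markers summed to 267 ± 28.6 CPM in ob_Cd2 against 419 ± 20.8 CPM in ob_control (SD, n = 6), with ranges of 214 to 297 and 399.7 to 458 CPM, and to 277 ± 14.0 CPM in ob_Cd2 without replicate 5. In b6j the sums were 262 ± 26.7 CPM in b6j_Cd2 against 269.8 ± 24.2 CPM in b6j_control, with ranges of 213 to 294 and 242 to 305 CPM that overlap. No podocyte marker was at 0 in all libraries of a group. Between controls the podocyte sum was higher in ob. Col4a3 averaged 190 ± 21.4 CPM in ob_control against 213 ± 27.1 CPM in b6j_control. Col4a4 averaged 246 ± 16.6 CPM in ob_control against 285 ± 33.6 CPM in b6j_control (SD, n = 6), and neither gene was called there. The part of podocyte RNA in the results for Col4a3 and Col4a4 was not tested in either genotype.

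Each of these type IV pairs lies head to head on its chromosome and is written from a shared start region, which is why the bases there are shown. The annotated starts of Col4a1 and Col4a2 overlap by 22 bases (chr8:11312805-11312826), and those of Col4a3 and Col4a4 are 71 bases apart (chr1:82586850-82586920), both given as the plus strand of GRCm38.p6 from the RefSeq windows. Capitals mark a match to any of the same 3 motifs on either strand.
Col4a1 and Col4a2: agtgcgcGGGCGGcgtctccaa
Col4a3 and Col4a4: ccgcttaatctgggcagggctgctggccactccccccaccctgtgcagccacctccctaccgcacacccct
GGGCGG lies in the overlap of Col4a1 and Col4a2, whose 22 bases are all in annotated exons. In the 22 bases just before a start, a different kind of stretch, it is found in 7.19% of all RefSeq windows. None of these motifs is in the 71 bases between Col4a3 and Col4a4, where GGGCGG would be found in 20.7% and CCAAT in 13.3% of such stretches. At 2 mg/kg Col4a1 and Col4a2 were called higher and Col4a3 and Col4a4 lower in both genotypes. At 0.5 mg/kg Col4a3 and Col4a4 were at -0.058 and 0.042 in b6j, neither called.

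The balance of the type IV pairs put this in 1 number per library. The summed CPM of Col4a1 and Col4a2 over that of Col4a3 and Col4a4 had lowest, median and highest values of 0.583, 0.692 and 0.764 at 0 mg/kg, 0.799, 0.906 and 1.11 at 0.5 mg/kg and 1.29, 1.97 and 6.55 at 2 mg/kg in ob kidneys. In b6j kidneys the values were 0.601, 0.661 and 0.904, 0.659, 0.688 and 0.792 and 1.16, 1.23 and 1.56 at the same doses. The 3 ob groups did not overlap, whereas in b6j the 0.5 mg/kg libraries lay within the control range. The ob values at 2 mg/kg were 1.29, 1.78 and 2.58 when ob_Cd2 replicate 5 was left out. The ratio was built from genes chosen with results of these data known, so it carries no test.

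**Figure D2:**
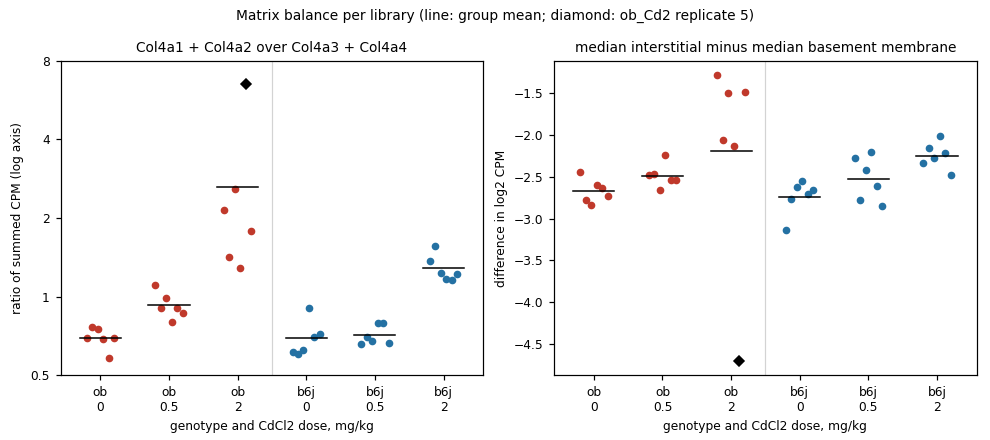
Left, summed CPM of Col4a1 and Col4a2 over Col4a3 and Col4a4 in each library, on a log axis; right, median log2 CPM of the 10 interstitial collagen genes minus that of the 10 basement membrane genes. Points are libraries by genotype and CdCl2 dose, lines are group means and the diamond is ob_Cd2 replicate 5, at a ratio of 6.55 and a difference of -4.71.

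Other basement membrane genes that rose were Col18a1, Lamc1 and Nid1. Col18a1, the collagen whose tail is released as endostatin, had 243 to 849 CPM in ob_Cd2 against 153 to 176 CPM in ob_control, and 213 to 303 CPM in b6j_Cd2 against 141 to 178 CPM in b6j_control. Groups did not overlap in either genotype. The changes were 1.19 ± 0.18 (edgeR adjusted p = 4.09e-06) in ob, 0.77 ± 0.087 (edgeR adjusted p = 6.01e-09) without replicate 5, which held 849 CPM, and 0.63 ± 0.18 (edgeR adjusted p = 0.00968) in b6j. Lamc1, the laminin gamma 1 chain shared by most laminins, had 72.1 to 125 CPM in ob_Cd2 against 42.8 to 50.0 CPM in ob_control, and 71.4 to 84.6 CPM in b6j_Cd2 against 40.9 to 53.8 CPM in b6j_control. It rose by 0.93 in ob (edgeR adjusted p = 4.08e-08, and 0.82 without replicate 5) and 0.75 in b6j (edgeR adjusted p = 3.66e-06). Nid1, which links laminin to type IV collagen, rose by 0.52 in ob (edgeR adjusted p = 0.00352, and 0.41 without replicate 5) and 0.69 in b6j (edgeR adjusted p = 0.000402). Lamb1, the laminin beta 1 chain, was at -0.16 ± 0.076 (edgeR adjusted p = 0.0919) in ob and 0.037 ± 0.076 (edgeR adjusted p = 0.783) in b6j, and without replicate 5 it was called lower in ob at -0.19. Col15a1, a relative of Col18a1, was at 0.48 ± 0.22 (edgeR adjusted p = 0.0755) in ob and 0.51 ± 0.22 (edgeR adjusted p = 0.0853) in b6j, and without that library it was called higher in both, at 0.69 and 0.50.

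Fibronectin, fibrillin and SPARC rose among the other matrix glycoproteins. Fn1 (chr1:71585520-71653200, minus strand), the adhesive glycoprotein onto which collagen is laid, had lowest, median and highest levels of 26.6, 32.8 and 40.6 CPM at 0 mg/kg, 30.0, 35.8 and 42.8 CPM at 0.5 mg/kg and 16.5, 72.5 and 102 CPM at 2 mg/kg in ob kidneys. In b6j kidneys they were 16.3, 32.1 and 45.0 CPM at 0 mg/kg, 18.9, 41.0 and 48.6 CPM at 0.5 mg/kg and 46.7, 55.3 and 81.4 CPM at 2 mg/kg. The 2 mg/kg libraries lay above the controls except for ob_Cd2 replicate 5, at 16.5 CPM. The change was 1.06 ± 0.25 (edgeR adjusted p = 0.00111) in ob, 1.27 ± 0.19 (edgeR adjusted p = 1.10e-06) without replicate 5, and 0.92 ± 0.25 (edgeR adjusted p = 0.00701) in b6j. Fbn1, the main microfibril protein, averaged 21.3 ± 7.72 CPM in ob_Cd2 against 14.2 ± 1.69 CPM in ob_control, and 18.8 ± 2.28 CPM in b6j_Cd2 against 9.32 ± 1.57 CPM in b6j_control (SD, n = 6). It rose by 0.58 in ob (edgeR adjusted p = 0.0139, and 0.76 without replicate 5) and 1.01 in b6j (edgeR adjusted p = 0.000139); 20.1% of its exon bases are shared with Gm9913. Sparc, a collagen-binding protein secreted by many stromal cells, rose by 0.26 in ob (edgeR adjusted p = 0.0343, and 0.35 without replicate 5) and 0.49 in b6j (edgeR adjusted p = 0.000326). The ob call of Sparc was lost when ob_control replicate 3 or 4 or ob_Cd2 replicate 1, 3 or 6 was left out, with changes of 0.19 to 0.27, and with no filter, with a replicate block and in a fit of the 2 ob groups alone (highest edgeR adjusted p = 0.125). That of Fbn1 was lost without ob_Cd2 replicate 6, at 0.44, and in a fit of the 2 ob groups alone (edgeR adjusted p = 0.0850).

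Decorin and periostin were called in b6j and not in ob. Dcn, a small proteoglycan that binds collagen fibrils, had 24.1 to 66.3 CPM in ob_Cd2 against 29.1 to 46.8 CPM in ob_control, ranges that overlap, and 37.2 to 53.7 CPM in b6j_Cd2 against 16.9 to 33.9 CPM in b6j_control, ranges that do not. The change was 0.27 ± 0.19 (edgeR adjusted p = 0.271) in ob, 0.40 without replicate 5 and still not called (edgeR adjusted p = 0.0562), and 0.95 ± 0.19 (edgeR adjusted p = 0.000257) in b6j. The difference between genotypes was not called (edgeR adjusted p = 0.167, and 0.212 without replicate 5). Postn, a matrix protein of injured and growing tissue, had 2.35 to 16.4 CPM in b6j_Cd2 against 1.21 to 4.15 CPM in b6j_control and changed by 1.60 ± 0.51 (edgeR adjusted p = 0.0206). The highest of those libraries was b6j_Cd2 replicate 3, at 16.4 CPM, and without it the change was 1.02 with an edgeR adjusted p of 0.143. That library and b6j_Cd2 replicate 2 summed to 162 and 341 CPM of the 7 perirenal fat markers, against 37.9 to 98.7 CPM in b6j_control. Postn was at 4.22 CPM in b6j_Cd2 replicate 2. The part of fat in the Postn result was not tested. In ob Postn was at 0.11 ± 0.50 (edgeR adjusted p = 0.889), and its difference between genotypes was -1.49 ± 0.71 (edgeR adjusted p = 0.279). Leaving out ob_Cd2 replicate 5 gave 0.32 in ob and a difference of -1.27, neither called. The other members of this class were not called in either genotype: Lum and Bgn, proteoglycans related to decorin, Tnc, an adhesion-modulating glycoprotein, and Eln, the core of elastic fibres, changed by -0.32 to 0.34 in ob and by 0.033 to 0.73 in b6j. Lum and Bgn were called higher in b6j, at 0.72 and 0.26, once ob_Cd2 replicate 5 was left out. In ob the 4 genes were then at -0.13 to 0.56, with none called.

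**Figure D3:**
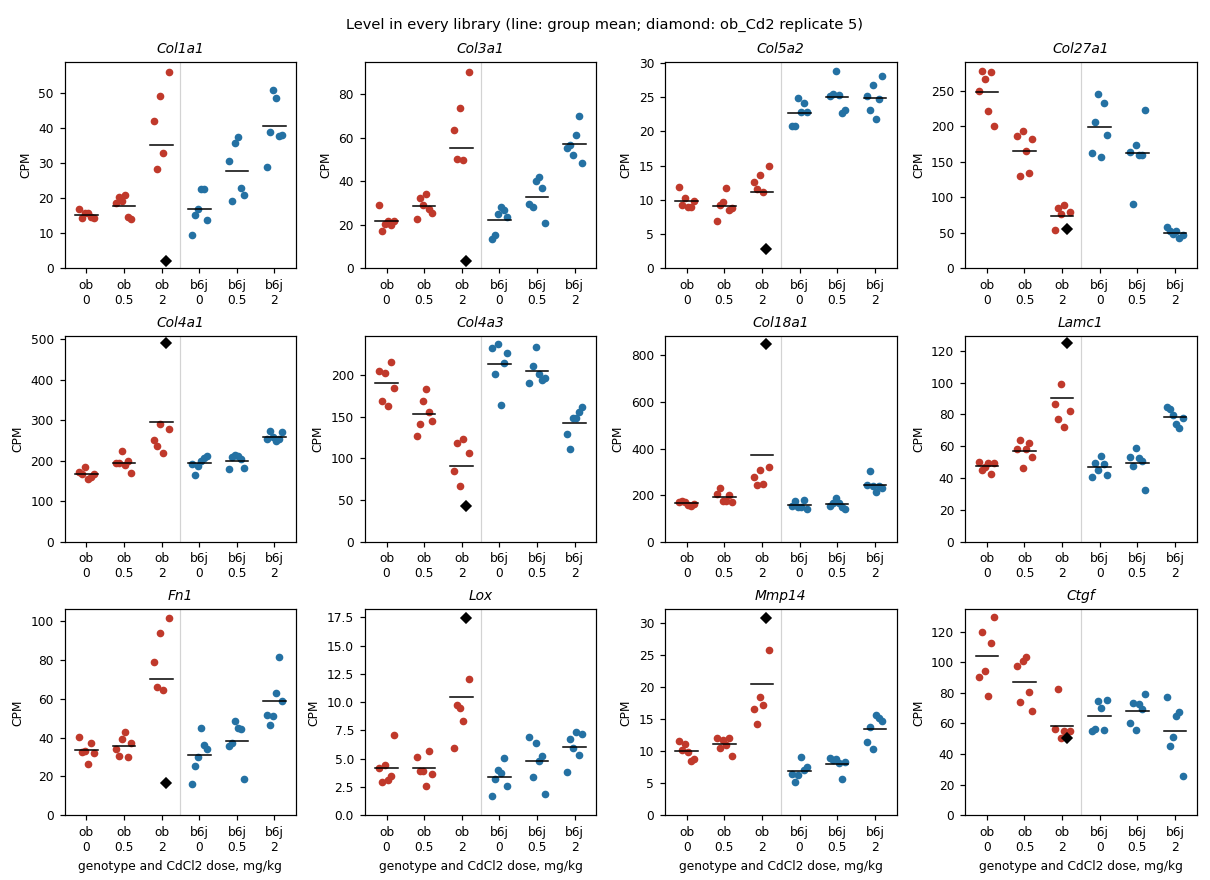
CPM of 12 matrix genes in every library by genotype and CdCl2 dose, with ob kidneys left of b6j kidneys; points are libraries, lines are group means and the diamond is ob_Cd2 replicate 5. Col5a2 sits lower in all ob groups than in all b6j groups, Col27a1 and Col4a3 are lowest at 2 mg/kg, and the diamond is at 1.99 CPM for Col1a1 and 849 CPM for Col18a1.

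Among cross-linking enzymes, signals and turnover genes, Lox and Mmp14 rose in both genotypes and Ctgf fell in ob. Lox, lysyl oxidase, which links collagen and elastin fibres, lies on chromosome 18 and had 5.92 to 17.4 CPM in ob_Cd2 against 2.96 to 7.12 CPM in ob_control, and 3.80 to 7.37 CPM in b6j_Cd2 against 1.67 to 5.03 CPM in b6j_control. Both pairs of ranges overlapped. The change was 1.32 ± 0.27 (edgeR adjusted p = 0.000238) in ob, 1.12 ± 0.26 (edgeR adjusted p = 0.000784) without replicate 5, and 0.85 ± 0.28 (edgeR adjusted p = 0.0224) in b6j. Without b6j_control replicate 1, b6j_control replicate 6 or b6j_Cd2 replicate 4 the b6j call was lost. Loxl2, a related oxidase, was at 0.065 ± 0.26 (edgeR adjusted p = 0.867) in ob (0.25 without replicate 5) and 0.40 ± 0.26 (edgeR adjusted p = 0.286) in b6j.

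Tgfb1, the growth factor itself, rose by 0.26 in ob (edgeR adjusted p = 0.0361) and 0.39 in b6j (edgeR adjusted p = 0.00437). The ob change without ob_Cd2 replicate 5 was 0.23 and not called (edgeR adjusted p = 0.0723), and the call was also lost without ob_control replicate 1, 3 or 6 or ob_Cd2 replicate 6, with no filter and with limma-voom. Ctgf, the connective tissue growth factor and a common readout of that pathway, moved the other way, with lowest, median and highest levels of 78.1, 103 and 129 CPM at 0 mg/kg, 68.4, 88.9 and 103 CPM at 0.5 mg/kg and 50.6, 55.2 and 82.5 CPM at 2 mg/kg in ob kidneys. In b6j kidneys the levels were 54.8, 63.3 and 75.5 CPM at 0 mg/kg, 55.5, 70.8 and 79.5 CPM at 0.5 mg/kg and 25.4, 58.0 and 77.0 CPM at 2 mg/kg. The ob_Cd2 libraries lay below the ob_control range apart from replicate 2, at 82.5 CPM, and the b6j groups overlapped. The change was -0.83 ± 0.17 (edgeR adjusted p = 0.000234) in ob, -0.79 ± 0.18 (edgeR adjusted p = 0.000462) without replicate 5, and -0.23 ± 0.17 (edgeR adjusted p = 0.374) in b6j. The difference between genotypes was -0.60 ± 0.24 (edgeR adjusted p = 0.187), and -0.55 ± 0.24 (edgeR adjusted p = 0.212) without replicate 5. In the annotation 23.2% of the exon bases of Ctgf are shared with Gm15270. The 9 endothelial markers summed to 449 ± 90.4 CPM in ob_Cd2 (478 ± 61.3 CPM without replicate 5) against 676 ± 31.6 CPM in ob_control, and to 469 ± 34.5 CPM in b6j_Cd2 against 495 ± 54.9 CPM in b6j_control, and the podocyte sums given above moved likewise; their part in the Ctgf result was not tested.

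Mmp14, the membrane-bound metalloproteinase that activates pro-MMP2, had 14.2 to 30.8 CPM in ob_Cd2 against 8.48 to 11.5 CPM in ob_control, and 10.4 to 15.7 CPM in b6j_Cd2 against 5.20 to 9.07 CPM in b6j_control, with no overlap in either genotype. It rose by 1.04 in ob (edgeR adjusted p = 1.28e-06, and 0.89 without replicate 5) and 0.97 in b6j (edgeR adjusted p = 9.37e-06). Mmp2, the gelatinase it activates, was just outside the threshold, at 0.58 ± 0.25 (edgeR adjusted p = 0.0663) in ob and 0.68 ± 0.26 (edgeR adjusted p = 0.0541) in b6j, and was called higher in both without ob_Cd2 replicate 5, at 0.80 and 0.67. Timp2 and Timp3, inhibitors of these enzymes, were not called, at 0.048 and -0.22 in ob (0.13 and -0.079 without replicate 5) and 0.16 and -0.25 in b6j. Without that library Timp3 was called lower in b6j at -0.26. Pdgfrb, the receptor that marks pericytes and fibroblasts, was at -0.042 ± 0.14 (edgeR adjusted p = 0.843) in ob (0.12 without replicate 5) and 0.45 ± 0.14 (edgeR adjusted p = 0.0207) in b6j, where leaving out b6j_control replicate 1 or b6j_Cd2 replicate 4 ended the call. Acta2, smooth muscle actin and the usual mark of myofibroblasts, was at -0.21 ± 0.16 (edgeR adjusted p = 0.310) in ob (-0.061 without replicate 5) and 0.11 ± 0.16 (edgeR adjusted p = 0.694) in b6j. The sums of 11 other fibroblast, pericyte and mesangial markers were 274 ± 26.3 CPM in ob_Cd2 (282 ± 19.5 CPM without replicate 5) against 288 ± 19.7 CPM in ob_control, and 248 ± 13.7 CPM in b6j_Cd2 against 228 ± 23.3 CPM in b6j_control. Those of 8 macrophage markers were 170.2 ± 48.9 CPM in ob_Cd2 (187 ± 31.5 CPM without replicate 5) against 135 ± 8.58 CPM in ob_control, and 171 ± 12.4 CPM in b6j_Cd2 against 145 ± 11.3 CPM in b6j_control. Their part in the rises of interstitial matrix was not tested.

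Set against each other, the interstitial collagens and the basement membrane genes showed similar median changes at 2 mg/kg in b6j and a lower interstitial median in ob. The median log2 change was 0.17 for 10 interstitial genes and 0.50 for 10 basement membrane genes in ob, a difference of -0.34. In b6j the medians were 0.43 and 0.38, a difference of 0.051. With ob_Cd2 replicate 5 left out, the ob medians were 0.38 and 0.47, a difference of -0.089. In ob 2 interstitial genes were higher and 1 lower, and 5 basement membrane genes were higher and 2 lower, beside 20.4% and 18% of all genes. With ob_Cd2 replicate 5 left out these ob counts were 7 and 1 for interstitial and 7 and 3 for basement membrane genes, beside 19.1% and 18.9%. In b6j 3 interstitial genes were higher and 1 lower, and 5 basement membrane genes were higher and 2 lower, beside 12.3% and 11.4%. The b6j counts without that library were 7 and 1 for interstitial and 6 and 2 for basement membrane genes, beside 17% and 17.7%. The medians hide that both classes held genes moving in opposite directions. With only the 5 type I, III and V genes set against the 8 type IV, laminin and nidogen genes, the difference was 0.0996 in ob and 0.557 in b6j. A different quantity, the median level of 1 class minus that of the other within each library, averaged -2.19 ± 1.28 in ob_Cd2 (-1.69 ± 0.38 without replicate 5) against -2.67 ± 0.14 in ob_control, and -2.25 ± 0.16 in b6j_Cd2 against -2.74 ± 0.21 in b6j_control, in log2 CPM. By that measure the interstitial class was on average nearer to the basement membrane class at 2 mg/kg than in controls in both genotypes. In ob both parts moved. The interstitial level averaged 4.75 in ob_Cd2 (5.27 without replicate 5) against 4.54 in ob_control. The basement membrane level averaged 6.94 in ob_Cd2 (6.96 without replicate 5) against 7.21 in ob_control. In b6j the interstitial level was 5.05 in b6j_Cd2 against 4.47 in b6j_control, and the basement membrane level 7.29 against 7.21. No test was made of either score.

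At 0.5 mg/kg almost nothing in the set was called. In ob kidneys Col27a1 was lower, the only call among 39, beside 3.55% of all tested genes called higher and 0.737% called lower. It changed by -0.59 ± 0.15 (edgeR adjusted p = 0.0158), and without ob_Cd0.5 replicate 2 by -0.53 with an edgeR adjusted p of 0.0584. In b6j kidneys 0 of 39 genes were called by edgeR, beside 0.297% of all genes called higher and 0.0275% called lower. An unadjusted p under 0.05 was found for 2 of 39 (Col1a1 and Postn), beside 5.81% of all genes, and limma-voom with sample weights called 2, beside 1.28%. Col1a1 was at 0.73 ± 0.33 (edgeR adjusted p = 0.786) and Postn at 1.39 ± 0.51 (edgeR adjusted p = 0.505). Without ob_Cd2 replicate 5 the counts were 3 higher and 1 lower in ob, beside 6.65% and 3.04%, with Col4a1 at 0.21, Col4a2 at 0.20 and Timp3 at 0.24 called higher. In b6j Col1a1 was then called higher at 0.73 (edgeR adjusted p = 0.0408), the only call, beside 0.691% and 0.163%. The median change over the set was 0.00015 in ob and 0.15 in b6j.

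Between 0.5 and 2 mg/kg, 14 genes were higher and 5 lower in ob_Cd2 than in ob_Cd0.5, beside 15.2% and 14.5% of all genes. These were Col1a1, Col3a1, Col4a1, Col4a2, Col18a1, Lamc1, Nid1, Fn1, Sparc, Dcn, Lox, Tgfb1, Mmp2 and Mmp14, and lower Col27a1, Col4a3, Col4a4, Ctgf and Timp3. In b6j 10 were higher and 3 lower, beside 8.78% and 8.51%: Col4a1, Col4a2, Col18a1, Lamc1, Nid1, Fbn1, Sparc, Dcn, Tgfb1 and Mmp14, and lower Col27a1, Col4a3 and Col4a4. Col27a1 had the largest change of the called genes in b6j, at -1.70 ± 0.16 (edgeR adjusted p = 5.36e-10), and Lox in ob, at 1.34 ± 0.27 (edgeR adjusted p = 0.000424). With ob_Cd2 replicate 5 left out Lox was at 1.15 in ob, behind Col1a1 at 1.24, Col3a1 at 1.23 and Fn1 at 1.21. Col1a1 was at 0.98 ± 0.33 (edgeR adjusted p = 0.0240) in ob and 0.55 ± 0.33 (edgeR adjusted p = 0.273) in b6j, and Col3a1 at 0.96 ± 0.33 (edgeR adjusted p = 0.0244) in ob and 0.80 ± 0.32 (edgeR adjusted p = 0.0864) in b6j. Without ob_Cd2 replicate 5 the counts were 22 and 5 in ob, beside 13.4% and 14.3%, and 16 and 4 in b6j, beside 13.5% and 15.1%. In ob the calls of Col1a1, Col3a1, Dcn, Sparc and Mmp2 were each lost when ob_Cd2 replicate 6 was left out. They were also lost without ob_Cd2 replicate 3 for Col1a1, Col3a1, Sparc and Mmp2, without ob_Cd2 replicate 1 for Sparc and Mmp2, and without single ob_Cd0.5 libraries: replicate 6 for Col1a1, 1 for Col3a1, 1, 3 or 5 for Dcn, 1, 3, 4, 5 or 6 for Sparc and 1, 3, 5 or 6 for Mmp2. A fit of the 2 ob groups alone lost the calls of these 5 genes, of Fn1 and of Timp3, with the highest edgeR adjusted p at 0.187 for Col3a1, and that of Nid1 was lost without the 5 libraries richest in fat markers (edgeR adjusted p = 0.0590). In b6j the calls of Col18a1 and Tgfb1 were lost without b6j_Cd2 replicate 2, that of Dcn without b6j_Cd0.5 replicate 6 and that of Col4a2 without b6j_Cd0.5 replicate 1 or b6j_Cd2 replicate 6. Sparc was lost in b6j without b6j_Cd0.5 replicate 1 or 6 or b6j_Cd2 replicate 4 or 5 and with no filter. With ob_Cd2 replicate 5 left out, Col1a1, Col1a2, Col3a1 and Fn1 were called higher in both genotypes, with Col3a1 at 1.23 in ob and 0.79 in b6j.

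The response of matrix genes to cadmium was not shown to differ between genotypes. At 2 mg/kg 0 of 39 genes were called for that difference by edgeR, beside 1.06% of all genes called higher and 1.01% lower. An unadjusted p under 0.05 was found for 9 of 39, beside 17% of all genes, and limma-voom with sample weights called 1, beside 5.91%. The smallest adjusted p was that of Dcn, with a difference of -0.69 ± 0.27 (edgeR adjusted p = 0.167), whose 95% interval ran from -1.21 to -0.17. The interval was -0.99 to 0.83 for Col1a1 and -0.91 to 0.89 for Col3a1, so a larger or a smaller rise in ob than in b6j is within the error of this fit for both. These intervals keep ob_Cd2 replicate 5. Without that library the standard errors of the ob changes of both genes, given above, were smaller, and intervals of the difference from that fit are not given here. At 0.5 mg/kg 0 of 39 were called by edgeR, beside 0.369% and 0.0165%, and 3 had an unadjusted p under 0.05 (Dcn, Postn and Acta2, each with a log2 change further down in ob than in b6j), beside 8%. Only Col14a1 was called at 2 mg/kg when ob_Cd2 replicate 5 was left out, with a difference of -0.56 ± 0.16 (edgeR adjusted p = 0.0368). Its changes were then -0.18 in ob and 0.38 in b6j. Without ob_Cd2 replicate 5 the background was 2.2% higher and 1.93% lower at 2 mg/kg, and at 0.5 mg/kg no gene of the set was called beside 1.1% and 0.283%. Leaving out b6j_Cd2 replicate 6 in place of that library also gave 1 call among the 39 genes at 2 mg/kg, and the gene is not named here. Over all fits that each left out 1 library, 216 to 758 of all genes were called for that difference.

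**Figure D4:**
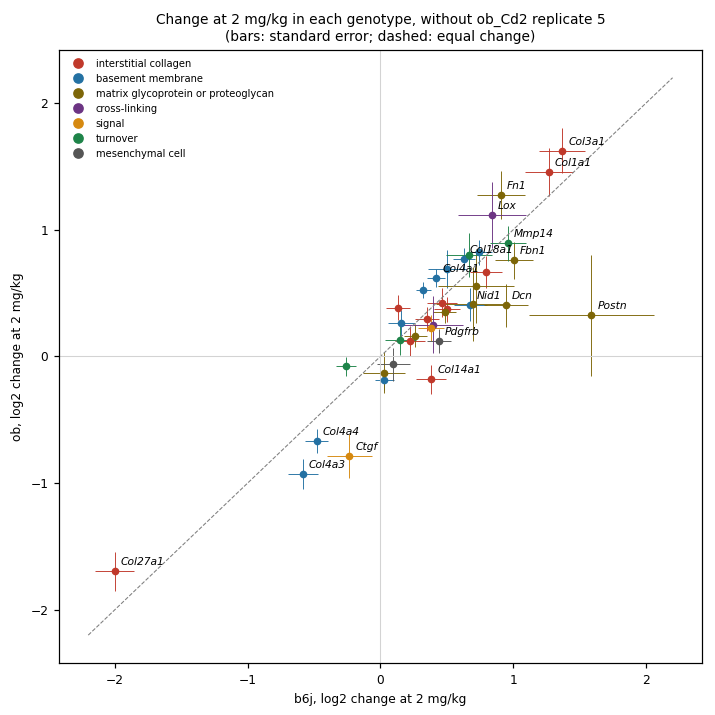
Log2 change at 2 mg/kg over 0 mg/kg in ob kidneys (vertical) and b6j kidneys (horizontal) for 39 matrix genes, fitted without ob_Cd2 replicate 5; bars are standard errors and the dashed line marks equal change. Col1a1 and Col3a1 lie at the upper right and Col27a1 at the lower left, with Col14a1 at -0.18 in ob and 0.38 in b6j.

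Before any cadmium, ob kidneys carried more of several stromal matrix transcripts and much less Col5a2 than b6j kidneys. In ob_control 10 of 39 genes were higher and 2 lower than in b6j_control, beside 6.6% and 8.93% of all genes. The higher genes were Col14a1, Nid1, Fbn1, Eln, Sparc, Dcn, Ctgf, Mmp2, Mmp14 and Pdgfrb, and the lower ones Col5a2 and Timp3. Without ob_Cd2 replicate 5, which is in neither group, the counts were 18 and 3, beside 11.8% and 14.2%. Those calls added Col1a2, Col5a1, Col6a1, Col6a2, Col6a3, Bgn, Timp2 and Acta2 as higher and Col4a1 as lower.

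Col5a2 (chr1:45374321-45503282, minus strand) had 8.95, 9.52 and 11.9 CPM in ob_control against 20.7, 22.8 and 24.8 CPM in b6j_control, as lowest, median and highest. All ob libraries of every dose were below all b6j libraries, the highest ob level being 14.96 CPM in ob_Cd2 and the lowest b6j level 20.7 CPM. The change was -1.20 ± 0.19 (edgeR adjusted p = 1.36e-05), a 2.30-fold lower level. Col3a1, whose annotated end lies 24614 bases from that of Col5a2 on chromosome 1, was at -0.039 ± 0.33 (edgeR adjusted p = 0.961). Timp3 was at 657 to 872 CPM in ob_control against 979 to 1227 CPM in b6j_control and changed by -0.55 ± 0.12 (edgeR adjusted p = 0.00111), with 21.3% of its exon bases shared with Syn3. Neither gene's control groups overlapped.

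Col14a1 had 44.1, 60.0 and 71.2 CPM in ob_control against 23.2, 30.1 and 38.5 CPM in b6j_control, and the change was 0.94 ± 0.22 (edgeR adjusted p = 0.00319). Mmp2 changed by 0.92 ± 0.26 (edgeR adjusted p = 0.0120), Dcn by 0.71 ± 0.19 (edgeR adjusted p = 0.00784), Ctgf by 0.69 ± 0.17 (edgeR adjusted p = 0.00461) and Nid1 by 0.61 ± 0.14 (edgeR adjusted p = 0.00207). Sparc was at 122 to 141 CPM in ob_control against 73.8 to 105 CPM in b6j_control, ranges without overlap. Further changes were those of Mmp14 (0.53), Pdgfrb (0.49), Fbn1 (0.61) and Eln (0.63). The call of Eln was lost without ob_control replicate 2, 3, 4 or 6 or b6j_control replicate 1, 2, 3 or 5, that of Fbn1 without ob_control replicate 1 or b6j_control replicate 1, 2 or 3, and that of Pdgfrb without b6j_control replicate 1. The fibrillar genes that led the response to cadmium did not stand out here, with Col1a1 at -0.13 ± 0.33 (edgeR adjusted p = 0.845). The median change was 0.35 for interstitial collagens, 0.041 for basement membrane genes and 0.56 for the other glycoproteins and proteoglycans, against 0.026 over all genes. Marker sums differed too: 419 ± 20.8 CPM of 8 podocyte markers in ob_control against 269.8 ± 24.2 CPM in b6j_control, 676 ± 31.6 CPM in ob_control against 495 ± 54.9 CPM in b6j_control for 9 endothelial markers, and 288 ± 19.7 CPM in ob_control against 228 ± 23.3 CPM in b6j_control for 11 fibroblast, pericyte and mesangial markers. The 6 urothelial markers summed to 40.6 ± 19.1 CPM in ob_control against 16.2 ± 8.19 CPM in b6j_control, with 3 called higher and a median change of 1.35. The 7 perirenal fat markers summed to 76.1 ± 33.5 CPM in ob_control against 53.2 ± 22.5 CPM in b6j_control, with 1 called higher and a median change of 1.31. Lower in ob_control were the sums of 9 proximal tubule markers, at 12707 ± 825 CPM against 15296 ± 404 CPM in b6j_control, and of 8 macrophage markers, at 135 ± 8.58 CPM against 145 ± 11.3 CPM. The part of these cell types in these results was not tested.

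**Figure D5:**
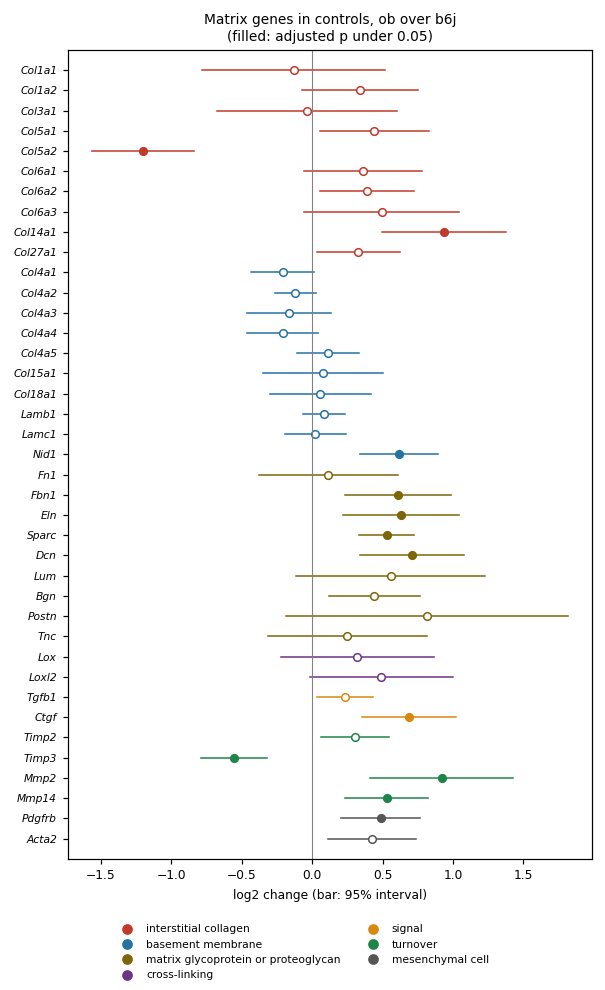
Log2 change of the 39 matrix genes in ob_control over b6j_control kidneys with 95% intervals; filled points were called. Col5a2 lies farthest to the left at -1.20 and Col14a1 farthest to the right at 0.94.

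Genes of the wider pathway were taken from lists of 76 further matrix genes, of which 75 were tested. Where a change is given for 1 genotype alone, the gene may also have moved in the other. With every library kept, none of these genes was called for a difference between genotypes in the response. At 2 mg/kg 21 of 75 were higher and 11 lower in ob, beside 20.4% and 18% of all genes, and 20 higher and 1 lower in b6j, beside 12.3% and 11.4%. Without ob_Cd2 replicate 5 the counts were 25 and 8 in ob, beside 19.1% and 18.9%, and 26 and 2 in b6j, beside 17% and 17.7%. Timp1, the inducible inhibitor of metalloproteinases, rose most of the turnover genes in both, at 3.18 ± 0.36 (edgeR adjusted p = 1.03e-08) in ob and 2.44 ± 0.35 (edgeR adjusted p = 1.96e-06) in b6j. Mmp3, stromelysin, was called higher in ob at 1.89, and Adamts1, Plat and Ctsk, proteases of matrix and plasmin, in both genotypes. Adamts15 was lower in b6j at -0.67. In the transforming growth factor beta list 3 of 18 were higher and 6 lower in ob, and 4 higher and 0 lower in b6j, beside the shares of all genes just given. Leaving out ob_Cd2 replicate 5 the counts were 3 and 4 in ob and 4 and 0 in b6j. Tgfbr2, a receptor, rose by 0.57 in ob and 0.48 in b6j. Ltbp1, which stores the latent factor, and Eng, an endothelial co-receptor, fell in ob at -0.67 and -0.61, and Tgfb2 and Tgfbi rose in b6j at 0.90 and 0.97, with Tgfbi at 0.57 in ob (0.65 without replicate 5). Eng is an endothelial gene, and the endothelial sums are given above. Their part in the Eng result was not tested.

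Among 16 other basement membrane genes 6 were higher and 2 lower in ob, and 4 higher and 0 lower in b6j, beside 20.4% and 18% of all genes in ob and 12.3% and 11.4% in b6j. Leaving out ob_Cd2 replicate 5 they were 5 and 2 in ob, beside 19.1% and 18.9%, and 5 and 0 in b6j, beside 17% and 17.7%. Agrn, a heparan sulfate proteoglycan, rose by 0.85 in ob and 0.55 in b6j. Lamb3, a laminin chain of epithelia, and Lama5 were higher in ob at 1.57 and 0.81. Leaving out ob_Cd2 replicate 5 gave 1.16 for Lamb3, which was not called, and 0.25 for Lama5. Lama3 rose in b6j at 0.77, with Frem1 at 1.00 and Lama1 at 0.31. Of 18 other interstitial matrix genes, Fbn2, a fibrillin of development, rose by 2.84 in ob (3.10 without replicate 5), Mfap4 by 1.05 in ob and 1.27 in b6j, Col12a1 by 0.85 in ob and 0.75 in b6j, and Thbs2 by 0.82 in ob and 0.74 in b6j. In b6j the largest change among these 18, called or not, was 1.46. Fmod, a collagen-binding proteoglycan, was lower in ob at -1.34. In all, 4 of these 18 were higher and 3 lower in ob, and 3 higher and 0 lower in b6j, beside the all-library shares above. Leaving out ob_Cd2 replicate 5 the counts were 8 and 2 in ob and 8 and 0 in b6j, beside the shares of that fit. Of 14 genes for collagen processing 3 were higher and 0 lower in ob, and 5 higher and 0 lower in b6j, beside the same all-library shares. Without ob_Cd2 replicate 5 the counts were 4 and 0 in ob and 5 and 1 in b6j, beside the shares of that fit. Adamts2, the procollagen N-proteinase, rose by 0.48 in ob and 0.77 in b6j. Plod3, a collagen lysyl hydroxylase, rose by 0.40 in ob and 0.37 in b6j. P4hb rose by 0.31 in ob, and Loxl4, Loxl3 and Bmp1 by 1.16, 0.58 and 0.46 in b6j.

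At 0.5 mg/kg 2 of the 75 were called in ob, Lama1 at 0.39 and Lama3 at 0.41, both higher, beside 3.55% of all genes, and 0 in b6j, where 10 had an unadjusted edgeR p under 0.05, beside 5.81% of all genes. The counts without ob_Cd2 replicate 5 were 5 higher and 2 lower in ob, beside 6.65% and 3.04%, and 1 higher and 0 lower in b6j, beside 0.691% and 0.163%. Between control groups 12 were higher in ob and 6 lower, beside 6.6% and 8.93% of all genes, and 23 and 9 in the fit without ob_Cd2 replicate 5, beside 11.8% and 14.2%. The first counts included Tgfb2 at 1.12, Tgfb3 at 0.78, Fbln5, an elastic fibre protein, at 0.95, Col8a1 at 0.82 and Ctsk at 0.79 as higher, and Plau, urokinase, at -0.93, P4ha1 at -0.47 and Lama1 at -0.40 as lower. Leaving out ob_Cd2 replicate 5, the ob changes at 2 mg/kg were 2.94 for Timp1, 2.12 for Mmp3, 0.53 for Tgfbr2, -0.51 for Ltbp1, -0.47 for Eng, 0.80 for Agrn, 1.29 for Mfap4, 0.83 for Col12a1, 1.01 for Thbs2, -1.08 for Fmod, 0.36 for Plod3, 0.24 for P4hb and 0.58 for Adamts2, all called. With every library kept, no gene of these lists was called by edgeR for a difference between genotypes in the response to either dose, and 3 at 0.5 mg/kg and 14 at 2 mg/kg had an unadjusted p under 0.05, beside 8% and 17% of all genes. The calls without ob_Cd2 replicate 5 were 0 higher and 0 lower at 0.5 mg/kg, beside 1.1% and 0.283%, and 0 and 2 at 2 mg/kg (Fbln5 and Fmod, both lower), beside 2.2% and 1.93%.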

How the data were processed

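Kidney RNA was sequenced in 36 libraries, 6 for each of 6 groups. The deposited values are whole-number counts of reads per gene, made by the authors with featureCounts 1.4.6-p2 on Ensembl release 96 of GRCm38 with no strand option, per the file headers. FastQC, Trimmomatic, STAR and bcl2fastq are named in the submitters' processing notes without versions. A joined table of 36 further columns was not used. Groups were taken from the labels.

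From the counts, 18180 of 55536 genes were kept by filterByExpr, and 20448 were at 0 in every library. One model over all 36 libraries was fitted with edgeR 4.0.16 (R 4.3.3), with TMM factors of 0.892 to 1.12, the quasi-likelihood test and Benjamini-Hochberg adjustment over all genes tested, for 9 comparisons. The common dispersion was 0.0489. Standard errors are the log2 change divided by the square root of F, and 95% intervals use 1.96 of them. CPM uses TMM-scaled library sizes, and TPM the gene lengths in the files. List medians by library use log2 of CPM plus 0.1. Counting error alone sets the floor of 3 counts given with the depth. The test was also run on simulated counts with 200 genes changed in ob_Cd2, and its outcome is not given here. No simulated library stood apart as ob_Cd2 replicate 5 does, so the run cannot show how that library affects calls.

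Alternatives were DESeq2 1.42.0, limma-voom 3.58.1 with sample weights, other scaling and filters, fits of only the groups compared, a replicate block, each library left out, and other lists or means for the class difference. The members and lists, and the choice of comparisons, were made with earlier results of these data known. All 39 members are accounted for, and every one called with all libraries kept is named. Of the 76 other matrix genes, up to 4 called genes of each list were named for the main comparisons by the size of their change, with some further ones so that both genotypes could be given, and 2 called genes are not reported here.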

Additional observations from a re-analysis of the deposited data

Results flagged for a closer look

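In 246 sets of 6 values (39 genes and 2 scores in 6 groups), 34 had a highest or lowest library whose gap to its neighbour, divided by the range of the set, was over the 95% limit of Dixon's test. About 1 in 20 sets, or 12.3 here, would be past it by chance. Of the 34, 16 came from ob_Cd2 replicate 5.

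In that library interstitial and stromal genes were far below the rest of ob_Cd2. Col5a1 was at 3.55 CPM (15.4 to 20.1 CPM in the other 5 libraries), Col5a2 at 2.84 CPM (11.1 to 14.96), Col6a1 at 5.98 CPM (31.7 to 37.4), Col6a2 at 5.17 CPM (15.6 to 20.9) and Col6a3 at 2.12 CPM (30.9 to 41.7). Col14a1 was at 8.13 CPM (46.9 to 57.3), Lum at 0.561 CPM (2.59 to 3.76), Bgn at 52.8 CPM (163 to 211), Postn at 0.810 CPM (3.50 to 5.08) and Timp3 at 341 CPM (670.0 to 792). Pdgfrb was at 19.7 CPM (45.4 to 55.7) and Acta2 at 16.3 CPM (34.8 to 42.0). Col4a1 and Col18a1, genes of basement membranes, were far above, at 491 CPM (218 to 291) and 849 CPM (243 to 319). The type IV collagen ratio was 6.55 (1.29 to 2.58), and the interstitial minus basement membrane level was -4.71 log2 CPM (-2.14 to -1.28).

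Other libraries stood apart for 1 or 2 genes each. In ob these were Col5a1 in ob_control replicate 5 (16.1 CPM, highest), Col6a3 in ob_Cd0.5 replicate 4 (39.7 CPM, highest) and ob_control replicate 6 (26.1 CPM, lowest), Lox in ob_control replicate 6 (7.12 CPM, highest), Nid1 and Mmp2 in ob_Cd0.5 replicate 5 (48.4 and 4.10 CPM, both lowest) and Ctgf in ob_Cd2 replicate 2 (82.5 CPM, highest). In b6j the high ones were Col18a1 and Tgfb1 in b6j_Cd2 replicate 2 (303 and 19.1 CPM), Postn in b6j_Cd2 replicate 3 (16.4 CPM) and b6j_control replicate 5 (4.15 CPM), and Tnc and Timp2 in b6j_control replicate 2 (17.8 and 58.8 CPM). The low ones were Col4a4 in b6j_control replicate 4 (219.8 CPM), Lum and Tgfb1 in b6j_control replicate 1 (0.582 and 8.001 CPM), Loxl2 in b6j_Cd2 replicate 1 (1.62 CPM) and Mmp14 in b6j_Cd0.5 replicate 5 (5.73 CPM).

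Col14a1 differed between genotypes in its response to 2 mg/kg by -0.56 on the log2 scale when ob_Cd2 replicate 5 was left out (edgeR adjusted p = 0.0368). The interaction term was the test. Col14a1 was the only gene of the set called in that fit, beside 2.2% of all genes called higher and 1.93% called lower. With every library kept, no gene of the set was called for that difference, Col14a1 included.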

How the results depend on the processing

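Over 9 settings and 36 fits that each left out 1 library, 57 of 82 calls of matrix genes were kept everywhere, 25 were lost somewhere and 0 reversed. The causes of the changes below were not tested. Results are given in the order of comparisons ob against b6j controls, b6j at 0.5, b6j at 2, b6j at 2 against 0.5, ob at 0.5, ob at 2, ob at 2 against 0.5 mg/kg, then the genotype differences at 0.5 and 2 mg/kg. The members called were 12, 0, 20, 13, 1, 17, 19, 0 and 0, and over the left-out libraries 9 to 21, 0 to 1, 18 to 29, 11 to 20, 0 to 4, 14 to 25, 14 to 27, 0 to 0 and 0 to 1. The genes called were 2822, 59, 4305, 3143, 779, 6976, 5406, 70 and 376, with 2257 to 4781, 42 to 157, 3718 to 6388, 2378 to 5267, 578 to 1780, 6451 to 7366, 4685 to 5965, 44 to 254 and 216 to 758. Every upper end of a member count that lay above the count itself, and the 157, 254, 758, 1780, 4781 and 5267 genes, came without ob_Cd2 replicate 5 (for the last also without b6j_Cd2 replicate 6). The 0 for ob at 0.5 mg/kg came without ob_Cd0.5 replicate 2. For the genotype difference at 0.5 mg/kg, 45 genes were called without ob_control replicate 1, 44 without ob_control replicate 2 and 45 without b6j_Cd0.5 replicate 1. At 2 mg/kg there were 748 without ob_Cd2 replicate 6, 216 without b6j_control replicate 3, 246 without b6j_control replicate 5 and 244 without b6j_Cd2 replicate 1.

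With limma-voom and sample weights, which gave ob_Cd2 replicate 5 a weight of 0.0332, members called were 24 for controls, 2 for b6j at 0.5, 20 for b6j at 2 against 0.5, 6 for ob at 0.5, 26 for ob at 2 mg/kg and 1 for the genotype difference at 2 mg/kg. Its genes called were 5629 for controls, 232 and 6949 for b6j at 0.5 and 2, 5176 for b6j at 2 against 0.5, 2337 for ob at 0.5 mg/kg, and 805 and 1075 for the genotype differences. DESeq2 called 106 genes for b6j at 0.5 mg/kg and 148 and 748 for the genotype differences. Fits of only the groups compared gave 24 members and 5007 genes for controls, 120 genes for b6j at 0.5, 20 members for b6j at 2 against 0.5, 8 members and 1937 genes for ob at 0.5, 3880 genes for ob at 2, 12 members and 1889 genes for ob at 2 against 0.5 mg/kg, and 321 and 194 genes for the genotype differences. Library size alone gave 20 members for controls and 590 genes for the genotype difference at 2 mg/kg, and no filter gave 239 genes there. Library size alone also put the median change of all genes at -0.11 to 0.161 over the comparisons, where TMM put it at -0.0104 to 0.0257. It moved the split of higher and lower genes called: 3017 and 864 against 1199 and 1623 for controls, 3463 and 1262 against 2232 and 2073 for b6j at 2, 2733 and 778 against 1596 and 1547 for b6j at 2 against 0.5, 428 and 653 against 645 and 134 for ob at 0.5, 4303 and 1683 against 2772 and 2634 for ob at 2 against 0.5 mg/kg, 41 and 15 against 67 and 3 and 127 and 463 against 193 and 183 for the genotype differences. No member called in these comparisons changed its direction.

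Without the 5 libraries over 150 CPM of perirenal fat markers, a setting chosen after seeing the data, members called were 22 for controls, 22 for b6j at 2 against 0.5, 2 for ob at 0.5, 26 for ob at 2 mg/kg and 1 for the genotype difference at 2 mg/kg. Genes called were then 4760 for controls, 142 for b6j at 0.5, 1366 for ob at 0.5 mg/kg, and 174 and 772 for the genotype differences. The call of Postn in b6j at 2 mg/kg was lost (1.02, edgeR adjusted p = 0.104).

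The interstitial minus basement membrane difference was 0.31, 0.18, 0.051, -0.095, -0.069, -0.34, -0.25, -0.26 and -0.26 in the order above, and over left-out libraries 0.28 to 0.35, 0.11 to 0.21, -0.023 to 0.12, -0.16 to -0.047, -0.11 to -0.028, -0.38 to -0.089, -0.30 to 0.015, -0.29 to -0.23 and -0.32 to -0.14. The narrower lists gave 0.0099 for controls, 0.56 for b6j at 2, 0.25 for b6j at 2 against 0.5, 0.083 for ob at 0.5, 0.0996 for ob at 2, 0.044 for ob at 2 against 0.5 mg/kg and -0.0058 for the genotype difference at 2 mg/kg. For ob at 2 mg/kg it was -0.096 with limma-voom, -0.089 without the fat-rich libraries and -0.13 with means. For ob at 2 against 0.5 mg/kg these were -0.00075, 0.0059 and -0.087.

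With the replicate number as a block, ob at 2 mg/kg had 16 members called and b6j at 2 mg/kg had 20. The calls of Postn in b6j (edgeR adjusted p = 0.0565), Sparc in ob (0.0504), Eln in controls (0.0503) and, between doses in ob, Sparc (0.0549) and Mmp2 (0.0523) were lost. For member counts without a count of all genes beside them, the background is the range of all genes called over the 9 settings. That range was 3880 to 7254 for ob at 2 mg/kg and 3830 to 6949 for b6j at 2 mg/kg. For b6j at 2 against 0.5 mg/kg it was 2661 to 5176. Same-numbered libraries deviated together with correlations of -0.168 to 0.162, so the numbers were not taken to pair them.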
